A study of Mus musculus with 6 samples.

Results

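Phosphoinositide 3-kinase (PI3K), the kinase AKT and the kinase mTOR form a chain that carries signals from antigen, costimulation and cytokine receptors to growth, protein synthesis and migration in T cells. Its genes were followed here as a list of 37 symbols, chosen by name, with earlier results of these data known. Of these, 35 had at least 1 probe set annotated to that gene alone, 96 probe sets in all, among 18193 genes with such a probe set on the array. Rps6kb1 and Rps6ka1, which encode kinases of the S6 kinase and RSK families, had no such probe set and were not analysed here. Each gene was read on the probe set with the highest mean signal, and all 35 passed the filter on dim genes that left 13194 genes to test.

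The samples were P14 cytotoxic T cells, which carry a transgenic receptor for the gp33 viral peptide, from C57Bl/6 mice. Splenocytes saw the peptide for 24 h and were then given a retrovirus encoding GFP joined to a phosphorylation-deficient HDAC7, a class IIa histone deacetylase. The 3 GFP positive samples hold the cells that carry the mutant, and the 3 GFP negative samples, labelled as the control, hold cells of the infected cultures without detectable GFP. No empty-vector cells are part of this comparison, and the sources used here do not name the promoter that drives the construct. The labels call the samples of a group biological replicates but do not say whether they came from separate animals, so p-values measure the spread between these samples only. In bulk RNA, fewer cells of a type and less RNA per cell cannot be told apart.

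Class I PI3K makes the membrane lipid PIP3 when a receptor is engaged, and PIP3 brings AKT to the kinase PDK1. Lipid phosphatases and the membrane protein PIK3IP1 limit this step. AKT relieves the block that the TSC complex puts on RHEB, and RHEB then switches on mTOR complex 1, provided that the RAG GTPases have signalled that amino acids are present. Complex 1 releases translation from the repressors 4E-BP1 and 4E-BP2 and activates the S6 kinases. A second complex, built on RICTOR, phosphorylates AKT and SGK1. In the nucleus, AKT keeps the FOXO factors out and so lowers the transcription of their targets.

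The arrays were alike in overall level, with a median log2 signal of 1.63 to 1.67 in GFP positive and 1.69 to 1.72 in GFP negative samples. Control probe sets that match no mouse transcript averaged 0.60 to 0.72 in GFP positive and 0.60 to 0.65 in GFP negative samples, which marks the level of background. Precision is limited by the number of arrays. The probe set that represents Hdac7 was 9.95-fold higher in GFP positive samples (limma adjusted p = 9.7e-07). A second Hdac7 probe set passed as lower, with a change of -0.55 on the log2 scale (limma adjusted p over probe sets = 0.0022). Which stretch of HDAC7 the virus encodes was not stated in the labels, so the position of either probe set relative to it is unknown. All 6 cytotoxic T cell markers examined, such as Cd8a and Cd3e, were above the filter, with levels from 6.80 to 12.58. Of these, 4 rose, Cd8a by 1.24, Cd8b1 by 1.15, Cd3g by 0.67 and Cd3e by 0.55, Gzmb changed by -0.998 and was lower, and Cd3d did not pass. Of 17 markers of other cell types, 14 had a probe set, with levels from 0.76 to 4.50. Their summed signal was 5.86 to 6.06 (log2) in GFP positive and 6.01 to 6.16 in GFP negative samples. Of the 7 past the filter, 0 rose by limma and 1, the dendritic progenitor gene Flt3, fell by 0.47. The part of these markers in the results was not tested.

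In GFP positive cells the list as a whole moved in both directions, with rises on the activating and on the restraining side of the pathway. By limma with Benjamini-Hochberg adjustment over all genes tested, there were 14 members that rose and 4 that fell, while 17 missed the threshold of 0.05. The 18 members that passed are 51.4% of the 35, against 42.1% of all genes tested. Rises made up 40% of the members and 24.6% of all genes, and falls 11.4% of the members and 17.5% of all genes. A change of at least 2-fold was found in 4 members, or 11.4%, against 5.33% of all genes. The groups did not overlap in 20 members (57.1%), against 53.8% of all genes. The share of members that passed is therefore near that of the array, and the description below concerns single genes and their roles. An alternative chosen after seeing the data left out GFP negative 1 and GFP positive 3 together. There 10 members rose and 2 fell, with the calls of Pik3ca, Irs2, Phlpp1, Rheb, Flcn and Rps6kb2 lost. The 12 that passed are 34.3% of the members, against 25.2% of all genes in that setting.

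Both activating and restraining members had medians above that of all genes. The 18 activating members had 8 rises, 1 fall and 9 that did not pass, with a median change of 0.19 on the log2 scale. The 14 restraining members had 5 rises, 2 falls and 7 that did not pass, with a median change of 0.21. The median over all genes tested was -0.02. With the filter on dim genes raised to the 60th percentile, the medians were 0.25 activating, 0.23 restraining and 0.06 for all genes. In that setting 56.25% of the 32 members tested passed, against 53.3% of all genes. Pik3r1, Gsk3b and Flcn were classed as mixed and kept apart. Tsc1, Tsc2, Eif4ebp1 and Eif4ebp2, whose products the pathway also counteracts, were counted as restraining, so the classes rest on a choice. Set against the mean of the GFP negative samples, the median of the activating members was 0.13, 0.27 and 0.28 in the 3 GFP positive samples, against -0.03, 0.03 and -0.01 in the GFP negative ones. That of the restraining members was 0.11, 0.23 and 0.25 in the GFP positive samples, against -0.03, 0.09 and 0.01 in the GFP negative ones. The level of the restraining median depended on the processing: it was 0.12 without GFP negative 1, 0.09 with quantile normalization and 0.03 when all probe sets of a gene were averaged. The activating median was 0.14 with quantile normalization and 0.22 with probe sets averaged. With quantile normalization the class medians differed by less than their SD between GFP positive samples (0.09 activating, 0.08 restraining). They lay farther apart with probe sets averaged. With each array centred on its median the medians were 0.07 for activating and 0.09 for restraining members, while the median of all genes was then -0.14.

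**Figure D1:**
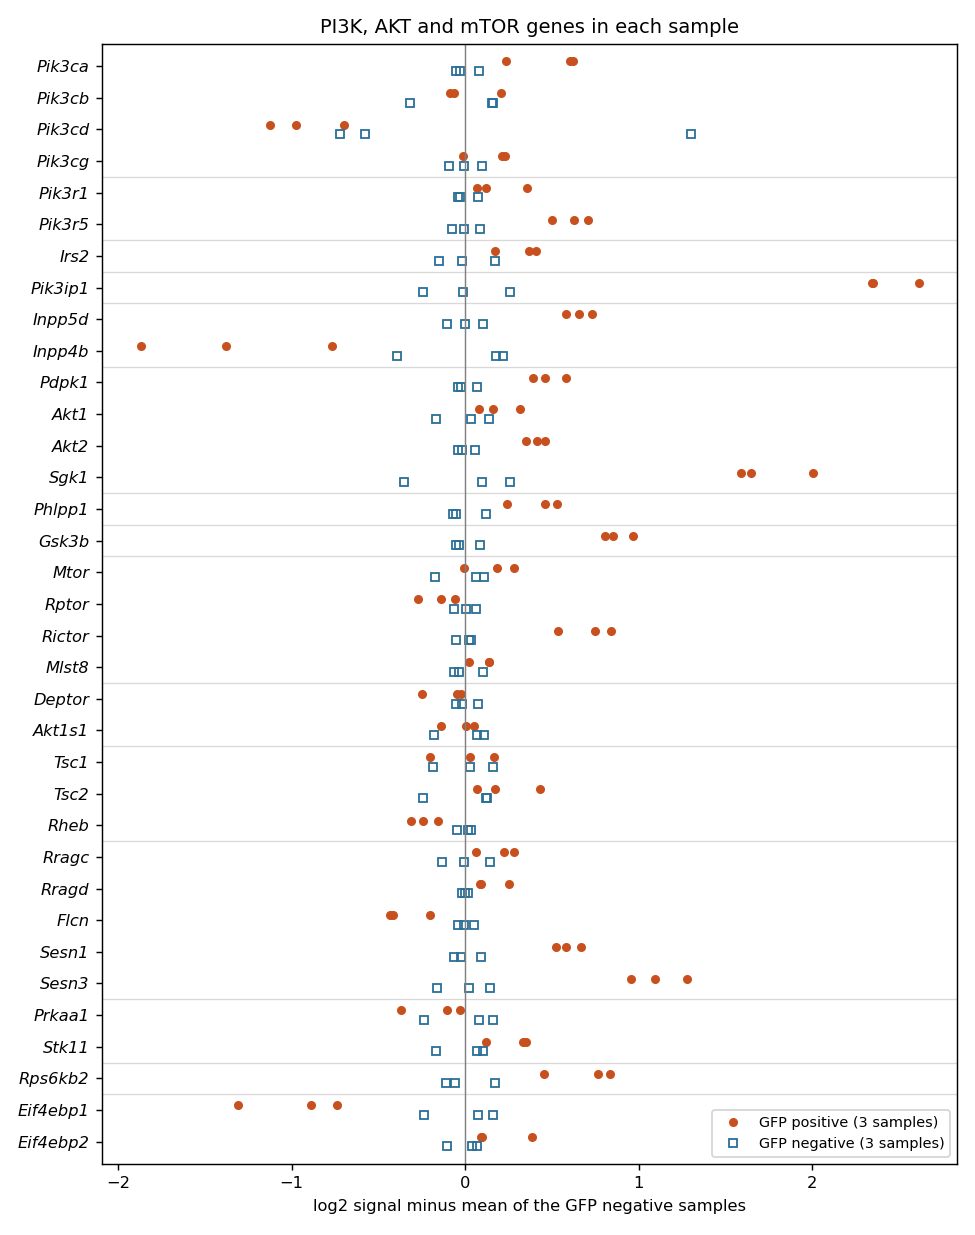
Log2 signal of each of the 35 members in the 3 GFP positive samples (filled circles) and the 3 GFP negative samples (open squares), each gene set against the mean of its GFP negative samples, with lines between groups of like role. Pik3ip1 and Sgk1 lie farthest to the right, Inpp4b and Eif4ebp1 lie to the left, and 1 GFP negative sample of Pik3cd stands alone on the right.

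**Figure D2:**
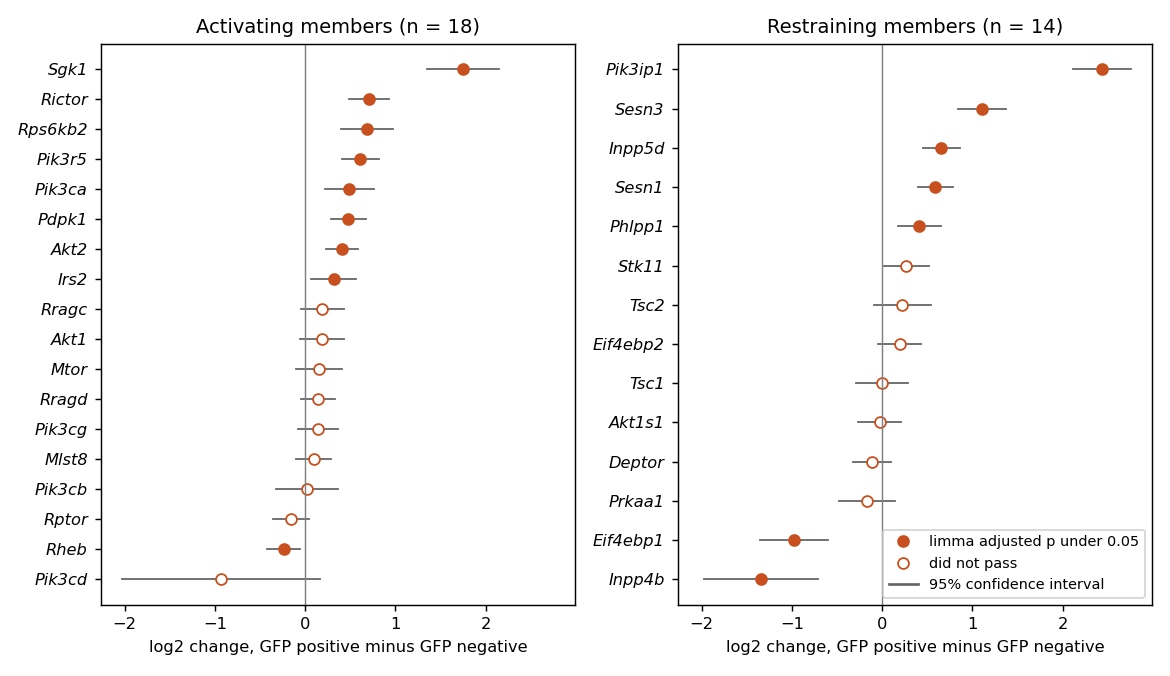
Log2 change, GFP positive minus GFP negative, with its 95% confidence interval from limma for 18 activating and 14 restraining members, each ordered by size. Filled points passed the adjusted p threshold of 0.05; the medians are 0.19 and 0.21.

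The largest change of the list was in a gene that acts at the top of the pathway. Pik3ip1 encodes a membrane protein that binds the catalytic subunit of PI3K and lowers its activity. Its log2 signal was 6.65, 6.64 and 6.91 in GFP positive samples, against 4.29, 4.56 and 4.06 in GFP negative samples. Every GFP positive sample lay more than 2 log2 units above every GFP negative one. The change was 2.44 ± 0.14 (SE), or 5.41-fold, with a limma adjusted p of 3.6e-05. The second probe set of the gene rose by 2.33.

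Lipid phosphatases moved in opposite directions. Inpp5d encodes SHIP1, which removes the 5-phosphate of PIP3 in blood cells. It read 7.53, 7.68 and 7.61 in GFP positive samples, against 6.85, 6.95 and 7.05 in GFP negative samples. The groups did not overlap, and the rise was 0.66 ± 0.09 (SE, limma adjusted p = 7.7e-04). Its second probe set changed by 0.24 and did not pass. Inpp4b encodes the enzyme that removes the 4-phosphate of the SHIP1 product. It read 2.97, 2.48 and 3.58 in GFP positive samples, against 4.52, 4.57 and 3.95 in GFP negative samples. Levels were low and the GFP positive samples spread widely, but the groups did not overlap. The fall was -1.34 ± 0.27 (SE, limma adjusted p = 0.0057), and the second, dimmer Inpp4b probe set fell by 0.58.

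Of the catalytic subunits of class I PI3K, Pik3ca rose by 0.49 (limma adjusted p = 0.012). It encodes p110 alpha, which is found in most tissues. Of its 4 other probe sets past the filter, 2 also rose, by 0.37 and 0.46, and 2 changed by -0.07 and -0.04. The average of its probe sets rose less, at 0.24, and did not pass (limma adjusted p = 0.080). Pik3cb, for p110 beta, lay near background, with means of 1.86 in GFP positive and 1.84 in GFP negative samples. Pik3cg, for p110 gamma, which answers to chemokine receptors, changed by 0.14 and did not pass.

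Pik3cd encodes p110 delta, the form best known in lymphocytes, and its probe sets disagreed. The brightest read 9.42, 9.27 and 9.70 in GFP positive samples, against 11.70, 9.68 and 9.82 in GFP negative samples. GFP negative 1 stood nearly 2 log2 units above both other control samples, and the groups overlapped. The change of -0.93 did not pass (limma adjusted p = 0.148), with a 95% interval from -2.03 to 0.16, and it was -0.28 without GFP negative 1. The second probe set read 9.56, 9.73 and 9.47 in GFP positive samples, against 8.52, 8.62 and 8.73 in GFP negative samples. On it the groups were well apart, and the rise was 0.96 ± 0.10 (SE, limma adjusted p over probe sets = 5.8e-04). Of the 3 dimmer probe sets, 2 rose, by 0.79 and 0.65, and 1 changed by 0.16 and did not pass. Pik3cd is therefore reported per probe set, without a direction for the gene. The average of its probe sets changed by 0.32 and did not pass (limma adjusted p = 0.0555).

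**Figure D3:**
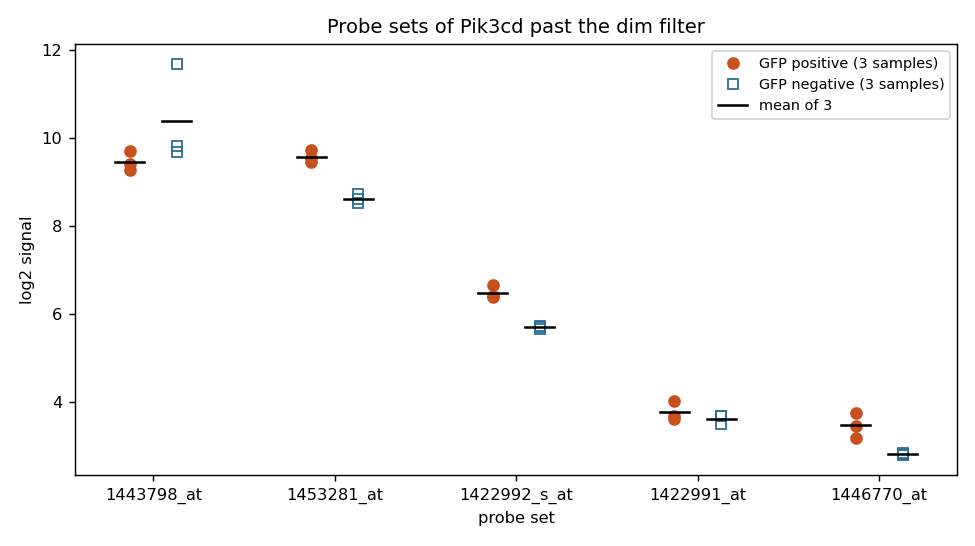
Log2 signal on the 5 Pik3cd probe sets past the filter, in 3 GFP positive samples (filled circles) and 3 GFP negative samples (open squares), with bars at the means. On the probe set at the left 1 GFP negative sample reads 11.70 against 9.68 and 9.82 in the others, while on 3 of the other 4 all GFP positive samples lie above all GFP negative ones.

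Among regulatory subunits, Pik3r5 rose and Pik3r1 did not pass. Pik3r5 encodes p101, which couples p110 gamma to G protein-coupled receptors. It read 6.97, 7.17 and 7.10 in GFP positive samples, against 6.39, 6.55 and 6.46 in GFP negative samples. The groups did not overlap, and the rise was 0.61 ± 0.09 (SE, limma adjusted p = 0.0011). Pik3r1, for p85 alpha, which both stabilises and holds back the catalytic subunit, changed by 0.18, with an interval from -0.05 to 0.41. Irs2, for an adaptor that links insulin and cytokine receptors to PI3K, sat at the threshold, with a rise of 0.31 (limma adjusted p = 0.0497). Its lowest GFP positive sample and highest GFP negative sample were equal at 3.28, and the call ended without GFP negative 1 (0.24), GFP negative 2 (0.31), GFP positive 2 (0.27) or GFP positive 3 (0.29).

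At the level of AKT, 3 of the 4 kinase genes rose. Sgk1 encodes a relative of AKT that is activated by PDK1 and mTOR complex 2 and that acts on ion transport and FOXO factors. It read 6.34, 5.98 and 5.92 in GFP positive samples, against 4.59, 3.98 and 4.43 in GFP negative samples. All GFP positive samples were higher, by more than 1 log2 unit, and the rise was 1.75 ± 0.17 (SE), or 3.36-fold (limma adjusted p = 2.2e-04). Only 1 probe set reads this gene. Pdpk1, the gene of PDK1, rose by 0.48 (limma adjusted p = 0.0028). The second Pdpk1 probe set changed by 0.52 without passing, and the average of both, at 0.50, did not pass (limma adjusted p = 0.12). Akt2 rose by 0.41 (limma adjusted p = 0.0037), and of its other probe sets 1 rose by 0.53 and 1 changed by -0.19. Akt1 changed by 0.19 and did not pass, with an interval from -0.06 to 0.44.

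Phlpp1 and Gsk3b, for a phosphatase and a substrate of AKT, also rose. Phlpp1, for a phosphatase that removes a phosphate from AKT, rose by 0.41 (limma adjusted p = 0.014) and lost its call without GFP negative 3 (0.37). Gsk3b encodes a kinase that restrains glycogen synthesis and MYC stability, and that AKT inhibits. It read 6.71, 6.76 and 6.87 in GFP positive samples, against 5.85, 5.87 and 5.99 in GFP negative samples. The samples within each group lay close together, and the rise was 0.88 ± 0.08 (SE), or 1.83-fold (limma adjusted p = 1.9e-04). Of 5 other Gsk3b probe sets, 3 rose by 0.75 to 0.82, 1 changed by 0.71 without passing and 1 by 0.00.

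The core of the mTOR complexes changed in 1 component. Rictor encodes the scaffold of mTOR complex 2. It read 5.26, 5.57 and 5.48 in GFP positive samples, against 4.75, 4.76 and 4.67 in GFP negative samples. The groups did not overlap, and the rise was 0.71 ± 0.10 (SE, limma adjusted p = 8.7e-04). Of its other probe sets, 2 rose, by 0.45 and 0.92, and the dimmest changed by 0.27. Mtor, for the kinase shared by both complexes, changed by 0.15, and Mlst8, for another shared subunit, by 0.10. Rptor, for the scaffold of mTOR complex 1, changed by -0.16, with an interval from -0.36 to 0.04. It passed as lower with quantile normalization (-0.30, limma adjusted p = 0.034) and with median centring (-0.27, limma adjusted p = 0.041). Genes of the complex inhibitors DEPTOR and PRAS40, Deptor and Akt1s1, changed by -0.11 and -0.03, and Deptor lay near background at 1.98 in GFP positive and 2.09 in GFP negative samples.

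The switch between AKT and mTOR complex 1 moved little. Rheb, for the GTPase that activates the complex, was lower by a small amount, with a change of -0.24 and a limma adjusted p of 0.044. That call ended without GFP positive 2 (-0.23), GFP positive 3 (-0.20), GFP negative 1 (-0.22), GFP negative 2 (-0.23) or GFP negative 3 (-0.26). Tsc1 and Tsc2, for the proteins that turn RHEB off, changed by 0.00 and 0.23 and did not pass.

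In the amino acid arm Sesn1 and Sesn3, 2 of the sestrin genes, rose. Sestrins hold back mTOR complex 1 through the GATOR complexes, and their genes are known FOXO targets. Sesn3 read 6.67, 6.53 and 6.86 in GFP positive samples, against 5.60, 5.41 and 5.72 in GFP negative samples. The groups were separated by more than the range within either, and the rise was 1.11 ± 0.12 (SE), or 2.16-fold (limma adjusted p = 2.7e-04). Its second probe set rose by 1.14. Sesn1 read 7.23, 7.09 and 7.15 in GFP positive samples, against 6.50, 6.54 and 6.65 in GFP negative samples. It rose by 0.59 ± 0.08 (SE, limma adjusted p = 9.9e-04) without overlap. Of its other probe sets, 1 rose by 0.60 and 1 changed by 0.17.

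Flcn encodes folliculin, which acts on the RAG GTPases at the lysosome, and fell by 0.35 (limma adjusted p = 0.016). The second Flcn probe set changed by -0.11 and did not pass, and the call ended without GFP positive 2 (-0.32) or GFP negative 2 (-0.33). Rragc and Rragd, for RAG GTPases, changed by 0.19 and 0.14 and did not pass, and Rragd lay near background at 2.13 in GFP positive and 1.98 in GFP negative samples. In the energy arm, Prkaa1, for a catalytic subunit of the energy sensor AMPK, changed by -0.17. Stk11, for its upstream kinase LKB1, changed by 0.27 and did not pass (limma adjusted p = 0.077), but did with the replicate number as a block (limma adjusted p = 0.028), with a trend and robust prior (limma adjusted p = 0.041) and without GFP positive 1 (0.34). The second Stk11 probe set changed by -0.29 and did not pass.

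Since FOXO factors are the nuclear end of the pathway, RefSeq promoter windows (GRCm38.p6, 250 bases before to 50 after a start site) were searched for the FOXO core GTAAACA on both strands. Of 51 windows for 34 of the 37 symbols, 4 held it (7.84%), against 3.65% of all 32851 windows. The 34 include Rps6kb1 and Rps6ka1, which had no probe set, while Deptor, Rps6kb2 and Eif4ebp1 had no window and were not searched. They are shown because they hold the match, in capitals within 30 bases on the strand of the gene, where TGTTTAC is the core on the other strand.
Sesn1, chr10:41810585-41810614, plus strand: gaaccttctacTGTTTACcagccttttggg
Stk11, chr10:80115800-80115829, plus strand: ggcgcagggcgGTAAACAagatggcggcgg
Pik3cg, chr12:32208544-32208573, minus strand: tttttcctaaaGTAAACAaatgatcctcct
Akt1, chr12:112675027-112675056, minus strand: atctaccctctTGTTTACactcctggtgaa

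Of these 4 genes Sesn1 rose and the others did not pass. The bases before a start site of Pik3ip1 and Sesn3, the restraining members that rose most, are shown in lower case throughout, because they hold no match.
Pik3ip1, chr11:3330481-3330730, plus strand: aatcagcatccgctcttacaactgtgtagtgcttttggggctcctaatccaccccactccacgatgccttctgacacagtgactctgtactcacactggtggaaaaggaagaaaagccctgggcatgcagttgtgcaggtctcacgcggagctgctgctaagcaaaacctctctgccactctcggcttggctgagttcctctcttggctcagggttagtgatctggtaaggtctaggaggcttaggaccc
Sesn3, chr9:14276051-14276300, plus strand: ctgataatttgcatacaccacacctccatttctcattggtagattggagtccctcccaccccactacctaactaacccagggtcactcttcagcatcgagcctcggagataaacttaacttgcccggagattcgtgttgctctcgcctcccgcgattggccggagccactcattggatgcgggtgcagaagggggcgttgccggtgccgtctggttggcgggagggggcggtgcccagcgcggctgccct

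The MEF2 motif, bound by the factors that class IIa deacetylases attach to, was found in 1 member window, of Rptor, and in 3.19% of all windows. A match is a description of these letters and not a binding site, and the absence of one concerns these windows alone.

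Among the outputs of mTOR complex 1, an S6 kinase gene rose and a translation repressor gene fell. Rps6kb2 encodes S6 kinase 2, which phosphorylates ribosomal protein S6. It read 3.80, 4.18 and 4.11 in GFP positive samples, against 3.29, 3.51 and 3.23 in GFP negative samples. The groups did not overlap, and the rise was 0.68 ± 0.12 (SE, limma adjusted p = 0.0033). Eif4ebp1 encodes 4E-BP1, which binds the cap-binding protein eIF4E until mTOR complex 1 phosphorylates it. It read 7.22, 7.37 and 6.80 in GFP positive samples, against 8.19, 8.27 and 7.88 in GFP negative samples. All GFP positive samples lay below all GFP negative ones, and the fall was -0.98 ± 0.16 (SE), or 1.97-fold lower (limma adjusted p = 0.0022). Another Eif4ebp1 probe set fell by 0.73, and the dimmest changed by -0.10. Eif4ebp2, for the related 4E-BP2, changed by 0.19, with an interval from -0.05 to 0.44.

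Apart from Pik3cd, the members that did not pass had changes from -0.17 to 0.27, and their 95% intervals reached from -0.47 to 0.54. Of the 17, 11 had a positive change.

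Other probe sets gave a second reading of 12 of the 18 members that passed. Of their 24 other probe sets past the filter, 20 changed in the same direction, 13 passed the same way and 0 passed the opposite way, by limma with adjustment over 27022 probe sets. Over those probe sets 32.5% passed. The 24 belong to genes that had already passed in the same samples, so their share cannot be read against that figure. The remaining 6 members, Pik3r5, Irs2, Sgk1, Phlpp1, Rheb and Rps6kb2, rest on 1 probe set each.

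**Figure D4:**
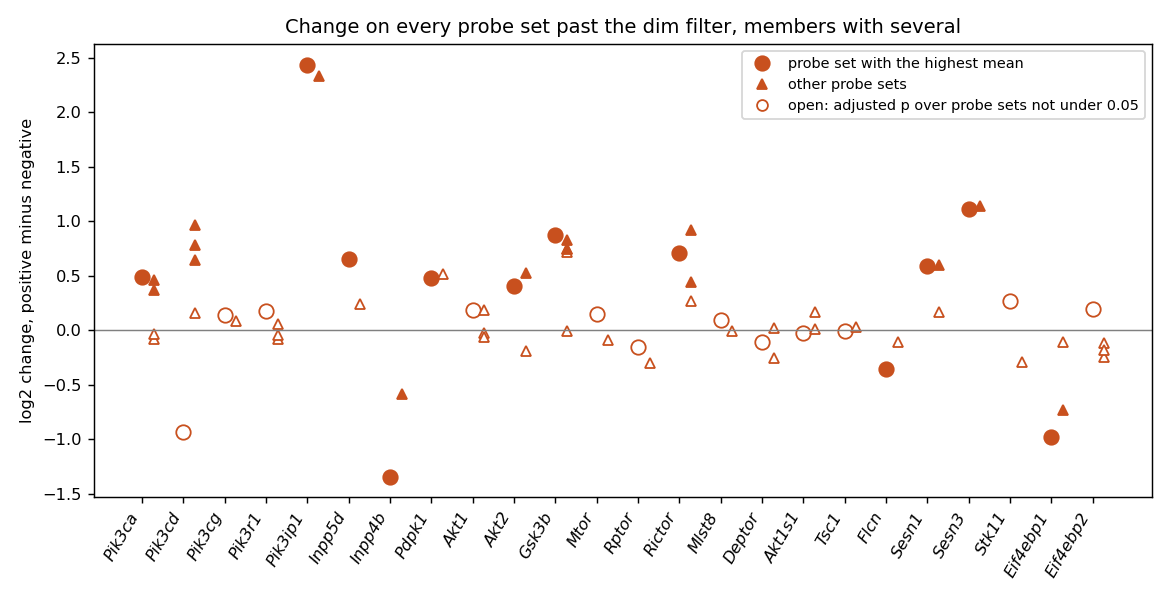
Log2 change, GFP positive minus GFP negative, on every probe set past the filter for the 24 members that have several; large circles are the probe sets with the highest mean, triangles the others, and filled symbols passed at an adjusted p of 0.05 over all probe sets. The probe sets of Pik3ip1 (2.44 and 2.33) and Sesn3 (1.11 and 1.14) lie together, while those of Pik3cd lie on both sides of 0.

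The sizes given above rest on the signal as deposited, and dim genes are sensitive to how background was treated. With 32 added to the unlogged signal, 9 of the 18 changes shrank by more than 1.5 times. The change became 1.42 for Pik3ip1, 0.93 for Sgk1, -0.38 for Inpp4b and 0.37 for Rictor. It became 0.31 for Pik3ca, 0.20 for Phlpp1, 0.20 for Rps6kb2 and -0.18 for Flcn, and all 8 still passed. Irs2 shrank to 0.07 and did not pass.

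Other genes of the pathway were examined as a list of 60, of which 53 were tested. There were 17 rises and 12 falls, and 24 genes did not pass, so that 54.7% changed, against 42.1% of all genes, with a median change of 0.05. With quantile normalization, and likewise with median centring, there were 13 rises and 15 falls, so the balance turned with the scaling. Without GFP negative 1 and GFP positive 3 there were 12 rises and 7 falls, in a setting where 25.2% of all genes passed. Inpp4a, for the relative of Inpp4b that removes the same phosphate, rose by 1.71, opposite in direction to Inpp4b. It read 5.66 ± 0.12 in GFP positive and 3.95 ± 0.13 in GFP negative samples (log2, SD, n = 3 each; limma adjusted p = 3.9e-05). Sgk3, for a second SGK kinase, rose by 1.06 and Gsk3a, for the other GSK3 kinase, by 0.52. Gab2, for an adaptor that recruits PI3K, rose by 0.90. Pdcd4, for an inhibitor of translation that S6 kinase marks for destruction, rose by 0.95, while Eif4e, for the cap-binding protein itself, fell by 0.59. Fnip2, for a binding partner of folliculin, fell by 1.26 and Telo2, for a chaperone of mTOR-family kinases, by 0.60. Their limma adjusted p lay between 3.9e-05 for Fnip2 and 0.0021 for Gsk3a. With 32 added in linear units the changes of Inpp4a, Gab2, Fnip2 and Telo2 were 0.80, 0.18, -0.33 and -0.23.

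Genes listed here as FOXO targets, other than members, moved both ways. Whether FOXO factors act on each of them, Trib2 among them, was not tested. The 19 tested had 6 rises, 4 falls and 9 that missed the threshold, or 52.6% changed, against 42.1% of all genes. The median change was 0.12, against -0.02 for all genes. Ccng2, for an atypical cyclin of quiescent cells, rose by 2.08, Txnip, for a protein that limits glucose uptake, by 1.33 and Cdkn1b, for the cell cycle inhibitor p27, by 1.01. Btg1, for an antiproliferative protein, rose by 0.86, and Map1lc3b, of autophagy, by 0.32. Bcl6, for a transcriptional repressor, rose by 1.11, with means of 2.11 in GFP positive and 1.00 in GFP negative samples, near background. Klf2, for a factor of T cell quiescence and homing, fell by 3.21, and Sod2, for mitochondrial superoxide dismutase, by 0.60. Limma adjusted p of the genes above lay between 3.3e-06 for Klf2 and 0.019 for Map1lc3b. The remaining falls were Ccr7 (-0.31, limma adjusted p = 0.023) and Trib2 (-0.62, limma adjusted p = 0.032). Trib2 did not pass with 32 added in linear units (-0.36, limma adjusted p = 0.075). Map1lc3b lost its call without GFP positive 3, GFP negative 1 or GFP negative 3, with changes from 0.27 to 0.32, and with median centring (0.20). With 32 added in linear units Klf2, Bcl6 and Cdkn1b changed by -1.70, 0.10 and 0.65. Without GFP positive 3 the list had 2 falls.

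Of 15 tested genes of glycolysis and its regulator HIF1, which mTOR complex 1 supports in activated cells, limma found 4 rises and 0 falls, while 11 missed the threshold. That is 26.7% changed, against 42.1% of all genes, with a median of -0.02. Slc2a3, for the glucose transporter GLUT3, rose by 1.32, Hk1, for a hexokinase, by 0.87, Aldoa, for aldolase, by 0.33 and Slc2a1, for the transporter GLUT1, by 0.31. Slc2a1 lost its call without GFP positive 1, GFP positive 2, GFP negative 2 or GFP negative 3, with changes from 0.26 to 0.34, and with median centring (0.20). Hif1a changed by -0.25, Pfkp by -0.15, Ldha by -0.10 and Slc16a3, for a lactate transporter, by 0.22, and none of these passed (limma adjusted p from 0.141 for Hif1a to 0.300 for Ldha). Hif1a passed as lower with the replicate number as a block (limma adjusted p = 0.044), and with median centring Hif1a and Pfkp passed as lower. Slc16a3 passed as higher without GFP positive 3 (0.35, limma adjusted p = 0.029).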

How the data were processed

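RNA of 6 samples was measured on Affymetrix mouse genome arrays, 1 array for each, according to the labels. The deposited table holds the authors' log2 signal for 45101 probe sets, made with Affymetrix Expression Console per the submitters' processing notes. That the values are log2 follows from their range. How they were summarised, background-corrected and normalized is not stated in those notes.

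The deposited values were used as they are. The probe set table gave 1 gene to 34945 probe sets, several to 932 and none to 9160, and 64 are controls. Of those with 1 gene, 34741 matched the reference gene table (GRCm38.p6), and 0 symbols changed. Each gene was read on the probe set with the highest mean, and genes under the 40th percentile of all probe sets (1.27) were left out. Other probe sets of a gene, where past that level, are given beside it.

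GFP positive were compared with GFP negative samples by limma 3.58.1 in R 4.3.3 (lmFit, eBayes, group only, two-sided), with Benjamini-Hochberg adjustment over all 13194 genes. The script was tested on simulated data. Samples of the same replicate number deviated together from their group means (correlations across genes of 0.47, 0.35 and 0.25), so the numbers were taken as pairs in an alternative. Other alternatives changed the scaling, the added background, the filter, the prior, the probe sets averaged and the samples kept. All 37 members are accounted for. Values per sample are given where a member passed, changed by at least 0.5 and had groups that do not overlap, and for Pik3cd, chosen after its values were seen. Up to 8 genes of each other list were named by unadjusted p, and Ccr7 and Trib2, the remaining falls of the FOXO list, were added later. Members and lists were chosen with earlier results of these data known. The MEF2 search was added later.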

Additional observations from a re-analysis of the deposited data

How the results depend on the processing

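None of the 18 members that passed changed direction under any of the 15 alternatives, and 12 kept their call in all 14 planned ones. Most alternatives could not turn a direction. The block, the filters and the prior leave each change as it is. Where groups do not overlap, as in 17 of the 18, leaving out samples or adding 32 cannot turn the direction. Quantile normalization, median centring and averaging of probe sets could. With the replicate number as a block, 19 members passed (15 higher, 4 lower), Stk11 being added, and it changed no other member's call. The 19 are 54.3% of the members, against 44.4% of all genes in that setting. Members that passed numbered 15 to 19 when 1 sample was left out, with 2 to 4 of them lower (2 without GFP positive 2 or GFP negative 2), and 4315 to 5604 genes passed in all. Without GFP negative 1 and GFP positive 3 together, an alternative chosen after seeing the data, 12 members passed, 2 of them lower, and 3325 genes in all. The share of higher calls over all genes was 58.4% as deposited, 49.0% with quantile normalization and 39.6% with median centring, while higher and lower members numbered 13 and 5 in both settings. The median of restraining members was 0.0912 with quantile normalization, 0.0939 with median centring, 0.13 with 32 added, 0.0318 with probe sets averaged, 0.0968 without both samples and 0.12 to 0.26 with 1 sample left out. That of activating members was 0.0743 with median centring. Averaging probe sets ended the calls of Pik3ca (0.24), Pdpk1 (0.50) and Flcn (-0.23), and keeping all dim genes ended those of Irs2 (0.31) and Rheb (-0.24), where more genes were tested. Irs2 also lost its call with quantile normalization, median centring, 32 added and a robust prior.

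Members that had not passed changed sign as follows, and none passed there. With quantile normalization Pik3cg changed by -0.0291 and Mlst8 by -0.0632, and with median centring Pik3cb by -0.10 and Mlst8 by -0.0178. With probe sets averaged Pik3cd changed by 0.32, Akt1s1 by 0.0512, Tsc1 by 0.0124, Stk11 by -0.0114 and Eif4ebp2 by -0.0869. With 1 sample left out, Pik3cb ranged from -0.14 to 0.10, Akt1s1 from -0.116 to 0.0300 and Tsc1 from -0.10 to 0.10. Deptor ranged from -0.149 to -0.0359, and without both samples Deptor changed by 8.5e-05, while Akt1s1, at -0.133, kept its sign there. The cause was not tested. Signals near 0.7 lie at background, which limits Pik3cb, Deptor and Rragd.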

Other observations

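Some genes outside the rule for named genes, chosen after their values were seen, form contrasts with members. Fnip1, for the other folliculin partner, fell by 0.79 (limma adjusted p = 0.0085), so that Flcn, Fnip1 and Fnip2 were all lower in GFP positive samples. Pik3r6, for the second adaptor of p110 gamma, changed by -0.91 (limma adjusted p = 0.0095), with means of 2.86 in GFP positive and 3.77 in GFP negative samples, while Pik3r5 rose. The 3 GFP negative values of Pik3r6 were identical, so their spread of 0 is not a measure of replicate error. Lamtor1, Lamtor2 and Lamtor4, for subunits of the lysosomal anchor of the RAG GTPases, rose by 0.51, 0.31 and 0.44, and Lamtor3 and Lamtor5 did not pass, at 0.09 and -0.24. Depdc5 and Nprl2, for subunits of the complex that turns the RAG GTPases off, rose by 0.45 and 0.28, while Nprl3, for the remaining subunit, changed by -0.03 and did not pass. Sesn2, the remaining sestrin gene, fell by 0.42 (limma adjusted p = 0.0079), against the rises of Sesn1 and Sesn3. Ddit4, for a stress-induced inhibitor of mTOR complex 1, fell by 0.41 (limma adjusted p = 0.031). With 32 added to the unlogged signal the changes were -0.43 for Fnip1, -0.21 for Pik3r6, 0.18 for Depdc5, 0.18 for Nprl2 and -0.18 for Sesn2, and Ddit4 no longer passed (-0.37, limma adjusted p = 0.0501). These genes were not examined under the other alternatives, apart from the replicate block.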
